A study of Mus musculus with 12 samples.

Results

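The SR proteins are splicing factors with a domain rich in arginine and serine. The 10 genes described here are Srsf1, Srsf2, Srsf3, Srsf4, Srsf5, Srsf6, Srsf7, Srsf10, Srsf11 and Tra2b. They were chosen by gene symbol and are 10 of the 22456 genes in the deposited expression table. By the same symbols they hold 86 of the 84592 skipped exon events deposited for fasted liver and 66 of the 75694 deposited for refed liver. These events cover 89 different exons. The question was whether inclusion of each gene's own cassette exons went with its level.

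RNA-Seq was made from whole liver of 12 adult male mice on the BALB/cByJ background. Of these, 6 were Lpin1-/- (fatty liver dystrophy, a spontaneous mutation carried in the whole body) and the other 6 were wild-type (Lpin1+/+) littermates. Lipin 1 is a phosphatidate phosphatase of triglyceride synthesis and a transcriptional coregulator. Within each genotype 3 mice were fasted for 16 hours, and 3 were fasted for 16 hours and then given chow for 5 hours (refed). Fasted livers were taken in the morning and refed livers in the afternoon, so feeding and clock time cannot be told apart. The mutant liver lacked lipin 1 from birth, so direct effects of its loss and effects of the long-standing disease cannot be told apart either.

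SR proteins bind short RNA motifs within exons, recruit the splicing machinery to the neighboring splice sites, and are regulated by phosphorylation of their arginine- and serine-rich domain. The family controls itself in part through poison exons. These are conserved cassette exons that carry a premature stop codon, so that a transcript holding one is sent to nonsense-mediated decay and makes no full-length protein. SRSF1 to SRSF7 are classical SR proteins. SRSF10 and TRA2B are SR-like regulators of exon choice, and SRSF11 is an SR-related protein of the spliceosome.

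The exons that the splicing results turn on are given here up to their first in-frame stop codon, which is in capitals. Sequences were read from the GENCODE M21 transcripts that cover each exon, on GRCm38, 5′ to 3′ on the strand of the gene, and the reading frame is that of the protein-coding transcript that skips the exon. None of the 7 is annotated whole in a protein-coding transcript, although the first 165 bases of the Srsf6 exon are an exon of a protein-coding one. They are the Tra2b exon of 276 bases (chr16:22258986-22259261, minus strand), the Srsf11 exons of 117 bases (chr3:158023243-158023359, minus) and 109 bases (chr3:158024123-158024231, minus), the Srsf4 exon of 207 bases (chr4:131884276-131884482, plus), the Srsf3 exon of 456 bases (chr17:29039454-29039909, plus), the Srsf6 exon of 268 bases (chr2:162932815-162933082, plus) and the Srsf7 exon of 107 bases (chr17:80204975-80205081, minus). The first 6 are annotated only in nonsense-mediated decay transcripts, and the Srsf7 exon is not annotated.
Tra2b: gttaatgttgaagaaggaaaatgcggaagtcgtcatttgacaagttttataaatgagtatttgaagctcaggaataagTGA
Srsf11, 117 bases: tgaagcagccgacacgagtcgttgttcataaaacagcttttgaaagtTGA
Srsf11, 109 bases: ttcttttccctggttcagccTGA
Srsf4: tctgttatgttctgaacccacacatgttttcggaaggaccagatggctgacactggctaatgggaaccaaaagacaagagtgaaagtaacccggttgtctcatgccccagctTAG
Srsf3: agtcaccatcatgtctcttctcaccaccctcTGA
Srsf6: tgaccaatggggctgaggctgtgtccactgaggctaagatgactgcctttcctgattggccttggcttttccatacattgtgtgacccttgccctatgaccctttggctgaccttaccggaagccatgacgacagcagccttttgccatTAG
Srsf7: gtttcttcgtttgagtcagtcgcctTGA

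The stop in the Tra2b exon begins at base 79 of the exon and lies 1015 bases before the last exon junction. In the other 6 the stop begins between base 21 (Srsf11, 109 bases) and base 150 (Srsf6), and 355 to 1006 bases before the last junction. TRA2B is known to bind RNA rich in GAA. On its own strand the Tra2b exon holds GAA 28 times and GAAGAA 3 times, overlapping matches included. Of 5164 annotated internal exons within 10% of its length, 0.077% hold GAA as often, the median is 5, and 21.9% hold GAAGAA. The other exons shown hold GAA 1 to 4 times and GAAGAA not at all. A match is a description of the letters and not a binding site.

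The Lpin1 gene was measured first, as a check of the genotype labels. Its RPKM was 22.0, 0.726 and 1.76 in the 3 fasted wild-type livers and 2.92, 0.784 and 2.76 in the refed ones, against at most 0.0597 in each of the 6 Lpin1-/- livers. Fasted wild-type replicate 1 stood apart in Lpin1, and results that change without it are given both ways. The defining markers of hepatocytes were present in all libraries, with a summed RPKM of 34218 to 77811. Summed markers of other liver cells ranged higher in fasted Lpin1-/- than in fasted wild-type liver. In fasted liver the genotypes overlapped for every cell type but stellate cells and fibroblasts. The summed level of 6 stellate cell and fibroblast markers was 192 to 283 in fasted Lpin1-/- and 64.7 to 153 in fasted wild-type liver, and that of 7 Kupffer cell and macrophage markers was 227 to 583 against 121 to 257. Neutrophil markers (3 genes) summed to 54.2 to 175 against 8.50 to 125, cholangiocyte markers (4) to 2.55 to 21.1 against 1.39 to 4.13, endothelial markers (5) to 37.8 to 50.7 against 18.6 to 44.0 and lymphocyte markers (4) to 2.24 to 6.83 against 1.74 to 4.29. No marker on any of the lists was at 0 in all libraries, and 1 of the 35, endothelial Lyve1, passed the test in that contrast. In refed liver the genotypes overlapped for every cell type, and the range was wider in wild type for each. Kupffer cell and macrophage markers summed to 70.9 to 521 in refed wild-type and 72.8 to 172 in refed Lpin1-/- liver. Lymphocyte markers summed to 0.747 to 16.7 against 1.09 to 2.28, and hepatocyte markers to 34218 to 68193 against 61899 to 68453. The part of cell types in the results was not tested. In whole liver, fewer cells of a type and less RNA per cell cannot be told apart.

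Expression was tested with limma on log2(RPKM + 1), where RPKM is a read count scaled to transcript length and to the mapped reads of the library, and fold changes are on that scale. All 10 SR genes passed the minimum mean RPKM of 0.5, as did 11507 genes in all. P-values were adjusted by Benjamini-Hochberg over all of them, and a gene was called at an adjusted p under 0.05.

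In fasted liver, 3 SR genes were higher in Lpin1-/- than in wild type (Srsf5, Srsf7 and Tra2b), 1 was lower (Srsf1), and the other 6 did not pass the test. The 4 of 10 called stand beside 18.8% of all genes tested. The median log2 difference was 0.32 over the 10 genes and -0.14 over all genes. The libraries of the fasted groups did not overlap for 7 of the 10, beside 32.9% of all genes tested. In refed liver none of the 10 passed, beside 6.67% called among all genes. An unadjusted p under 0.05 was found for 1 of the 10, beside 2585 of the 11507 genes tested.

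**Figure D1:**
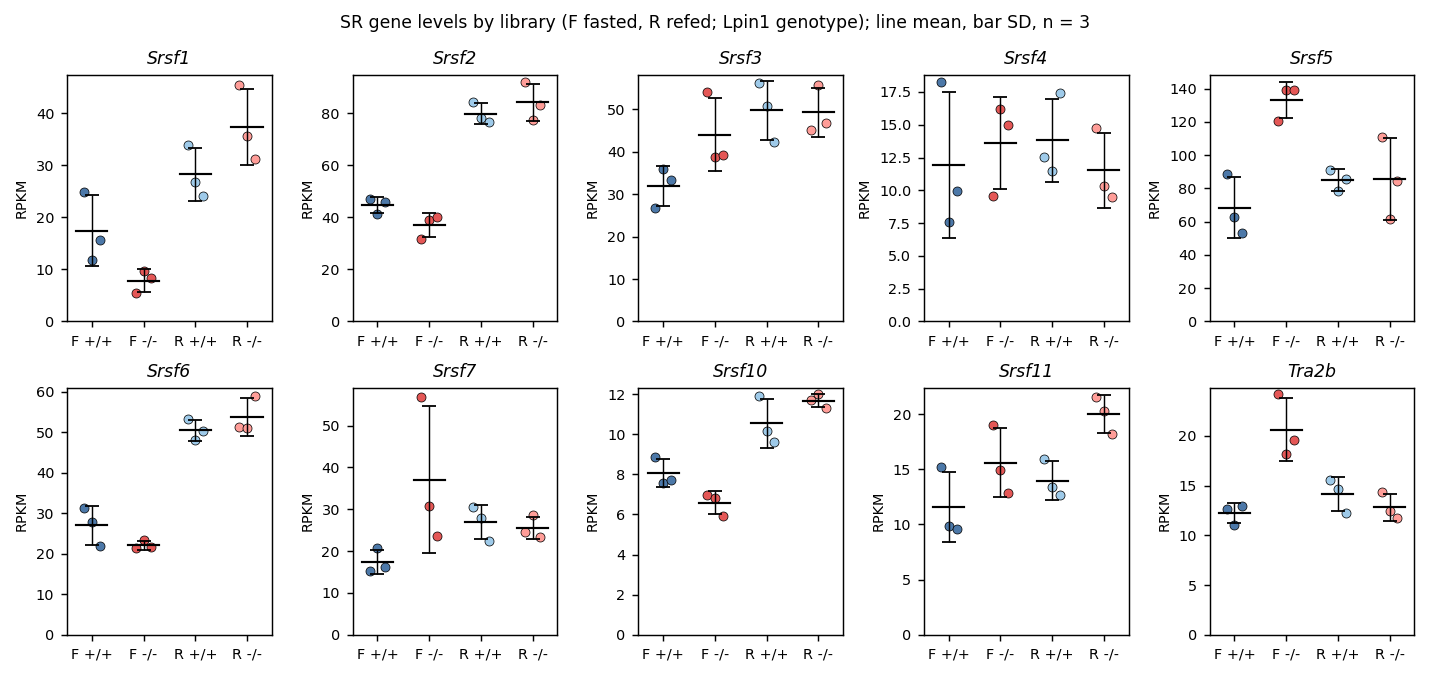
Level of each SR gene in RPKM (vertical axis) in the 3 livers of each of the 4 groups (points, with the mean as a line and the SD as a bar). Srsf1 was lowest and Srsf5, Srsf7 and Tra2b were highest in fasted Lpin1-/- liver, while Srsf2 and Srsf6 were higher in refed than in fasted liver of both genotypes.

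SRSF1, the founding member of the family, acts in both constitutive and alternative splicing. Srsf1 was at 24.9, 11.7 and 15.6 RPKM in fasted wild-type liver and at 5.45, 9.75 and 8.38 in fasted Lpin1-/- liver. It was at 33.9, 26.7 and 24.1 in refed wild-type and at 45.4, 35.6 and 31.2 in refed Lpin1-/- liver. Every fasted Lpin1-/- liver was below every liver of the other groups. The genotype difference in fasted liver was -1.02 log2 (SE 0.28, adjusted p = 0.0273, limma). The call was lost without fasted wild-type replicate 1 (-0.75, adjusted p = 0.0759), without fasted wild-type replicate 3 (-1.07, adjusted p = 0.0724) and without fasted Lpin1-/- replicate 1 (-0.81, adjusted p = 0.0968). It was also lost with no filter on low values (adjusted p = 0.0645) and with only the 6 fasted libraries in the fit (adjusted p = 0.0937). The direction was the same each time.

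Srsf2 encodes a classical SR protein that stays in the nucleus. Its level was 47.0, 41.5 and 46.0 RPKM in fasted wild-type, 31.7, 39.1 and 40.3 in fasted Lpin1-/-, 84.4, 78.4 and 76.8 in refed wild-type and 92.0, 77.6 and 83.1 in refed Lpin1-/- liver. Srsf6, which encodes another classical member, was at 31.3, 28.0 and 21.9 in fasted wild-type, 21.3, 23.4 and 21.7 in fasted Lpin1-/-, 53.2, 48.1 and 50.3 in refed wild-type and 51.3, 51.0 and 59.1 in refed Lpin1-/- liver. For both genes every refed liver was above every fasted liver, and no genotype contrast passed. In fasted liver the genotype difference was -0.28 (95% interval -0.61 to 0.06) for Srsf2 and -0.26 (-0.62 to 0.09) for Srsf6.

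Srsf5, whose transcript had the highest level per length of the 10, encodes a classical SR protein. It was at 89.0, 62.9 and 53.4 RPKM in fasted wild-type and at 120.4, 139.3 and 139.2 in fasted Lpin1-/- liver, with no overlap. In refed liver it was at 91.3, 78.4 and 85.7 in wild type and 110.8, 61.6 and 84.6 in Lpin1-/-, with the wild-type livers inside the range of the mutant ones. The fasted genotype difference was 0.98 log2 (SE 0.24, adjusted p = 0.0153). It missed the threshold without fasted wild-type replicate 3 (0.82, adjusted p = 0.0745) and, barely, without fasted Lpin1-/- replicate 2 (0.94, adjusted p = 0.0501).

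SRSF3 and SRSF7 are classical members that also act in mRNA export. Srsf7 was at 15.3, 20.7 and 16.3 RPKM in fasted wild-type and at 56.9, 30.7 and 23.7 in fasted Lpin1-/- liver. It was at 30.5, 27.9 and 22.4 in refed wild-type and 24.6, 28.5 and 23.5 in refed Lpin1-/- liver. The fasted groups did not overlap, although 1 mutant liver was far above the other two. The difference was 0.96 log2 (SE 0.28, adjusted p = 0.0316), and was 0.61 (adjusted p = 0.0793) without that liver, fasted Lpin1-/- replicate 1. The call was also lost without fasted wild-type replicate 1 (0.88, adjusted p = 0.0778), fasted wild-type replicate 3 (0.92, adjusted p = 0.102) or fasted Lpin1-/- replicate 2 (1.05, adjusted p = 0.0557), with no filter on low values (adjusted p = 0.0718) and with only the 6 fasted libraries (adjusted p = 0.109).

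Srsf3 was at 26.8, 35.9 and 33.2 RPKM in fasted wild-type, 54.0, 38.8 and 39.3 in fasted Lpin1-/-, 56.1, 50.7 and 42.4 in refed wild-type and 45.2, 55.8 and 46.8 in refed Lpin1-/- liver. The fasted wild-type livers were the lowest, but the genotype difference of 0.44 (95% interval 0.02 to 0.86) did not pass after adjustment (adjusted p = 0.131). Srsf4, a classical member, ranged from 7.59 to 18.2 RPKM over the 12 livers, with overlapping groups in every contrast.

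Tra2b was at 12.6, 11.1 and 13.0 RPKM in fasted wild-type and at 24.2, 18.2 and 19.6 in fasted Lpin1-/- liver. It was at 15.6, 14.6 and 12.3 in refed wild-type and 14.4, 12.4 and 11.7 in refed Lpin1-/- liver. The 3 fasted mutant livers were above the 9 others. The fasted genotype difference was 0.70 log2 (SE 0.17, adjusted p = 0.0153), and it missed the threshold without fasted Lpin1-/- replicate 1 (0.59, adjusted p = 0.0519) or with only the 6 fasted libraries (adjusted p = 0.0906).

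Srsf10 was at 8.86, 7.56 and 7.73 RPKM in fasted wild-type, 6.98, 6.84 and 5.91 in fasted Lpin1-/-, 11.9, 10.1 and 9.59 in refed wild-type and 11.7, 12.0 and 11.3 in refed Lpin1-/- liver. Its fasted groups did not overlap, yet the difference of -0.26 did not pass (adjusted p = 0.279). Srsf11 was at 15.2, 9.88 and 9.57 in fasted wild-type, 19.0, 14.9 and 12.9 in fasted Lpin1-/-, 15.9, 13.4 and 12.6 in refed wild-type and 21.6, 20.3 and 18.2 in refed Lpin1-/- liver. It was the 1 member whose refed groups did not overlap, with a difference of 0.49 (SE 0.21, unadjusted p = 0.0376, adjusted p = 0.191). How many of all genes did not overlap in refed liver was not counted.

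Refeeding was compared with fasting within each genotype. In Lpin1-/- liver 4 SR genes rose on refeeding (Srsf1, Srsf2, Srsf6 and Srsf10) and Tra2b fell. These 5 of 10 stand beside 20.7% of all genes. Srsf1 rose by 2.13 log2 (SE 0.28, adjusted p = 0.000914), Srsf6 by 1.24 (adjusted p = 0.00084), Srsf2 by 1.17 (adjusted p = 0.000832) and Srsf10 by 0.74 (adjusted p = 0.00778). Tra2b fell by 0.64 (adjusted p = 0.0223), a call lost without fasted Lpin1-/- replicate 1 (-0.53, adjusted p = 0.0806), refed Lpin1-/- replicate 2 (-0.62, adjusted p = 0.081) or refed Lpin1-/- replicate 3 (-0.58, adjusted p = 0.0843), and with only the 6 libraries compared (adjusted p = 0.0516). For Srsf5 the difference was -0.66 (adjusted p = 0.0667). It passed without refed Lpin1-/- replicate 1 (-0.87, adjusted p = 0.0354) or fasted wild-type replicate 1 (-0.66, adjusted p = 0.0369).

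In wild-type liver the refed mean was above the fasted mean for 10 of 10 genes, and Srsf2 (0.82, adjusted p = 0.0239) and Srsf6 (0.89, adjusted p = 0.0216) passed, beside 1.72% of all genes. Neither call was stable. Both were lost without fasted wild-type replicate 2 or 3 and without refed wild-type replicate 1 or 3, with adjusted p from 0.0682 to 0.113, and the Srsf2 call was lost without refed wild-type replicate 2 (0.83, adjusted p = 0.0568) or refed Lpin1-/- replicate 3 (0.82, adjusted p = 0.0548). With the replicate number as a block the adjusted p was 0.0614 for Srsf2 and 0.0567 for Srsf6, and with only the 6 libraries compared it was 0.157 and 0.177. Rescaling each library by its median ratio moved the median of all genes in this contrast from 0.19 to -0.0012 log2. On that scale 9 of 10 genes were higher in refed wild-type liver and none passed. Relative to the median of all genes, Srsf2 was then 0.58 and Srsf6 0.65 higher. In Lpin1-/- liver the same rescaling moved the median of all genes from 0.25 to 0.06, and 6 SR genes passed, with Srsf5 (-0.91, adjusted p = 0.0308) added to the 5.

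None of the 10 passed the test of the interaction, which asks whether the change on refeeding differed between the genotypes. That test called 1.28% of all genes. An unadjusted p under 0.05 was found for 4 of the 10, beside 2082 of the 11507 genes tested. The interaction was 1.42 log2 for Srsf1 (SE 0.40, adjusted p = 0.106), -0.83 for Tra2b (SE 0.24, adjusted p = 0.112), -1.01 for Srsf5 (SE 0.33, adjusted p = 0.154) and -1.03 for Srsf7 (SE 0.39, adjusted p = 0.201). After the rescaling the Srsf1 value was again 1.42 and passed (adjusted p = 0.036).

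**Figure D2:**
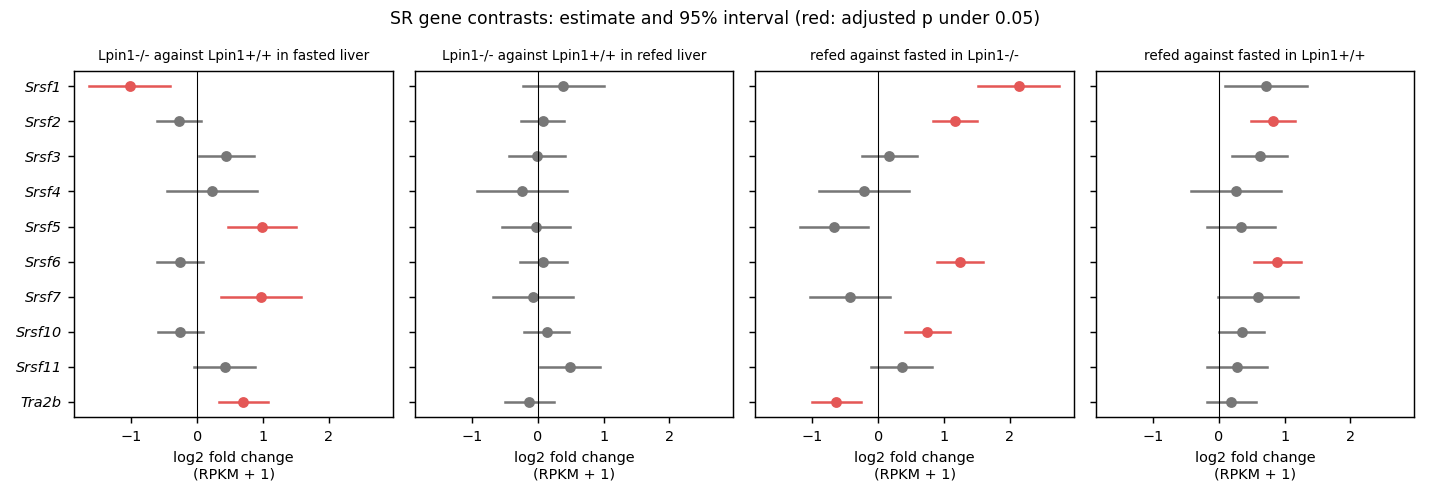
Log2 differences in level of the 10 SR genes (points) with 95% intervals (lines) in the genotype contrasts of fasted and refed liver and the refeeding contrasts of each genotype, red where the gene passed the test. In fasted liver 4 genes passed and in refed liver none did.

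The livers' own exons were then examined. Each event gives, per library, the reads that include an exon and the reads that skip it between the same flanking exons. Inclusion level is the length-corrected share of including reads, from 0 to 1. The test was limma on log2 of the length-corrected ratio of inclusion to skipping, with 0.5 added to each count and at least 10 counts in every library. The difference in this ratio is given in log2. Values for 3 livers are in the order of the deposited lists, which carry no replicate numbers, so an inclusion level could not be matched to the RPKM of the same liver. Events with the same skipping junction share their skipping reads.

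In fasted liver 80 of the 86 SR events could be tested and 19 passed, 10 with higher and 9 with lower inclusion in Lpin1-/-, beside 11.3% of all events. The median difference was 0.05 over the SR events and -0.58 over all events. The called events lie in 5 genes: Srsf11 with 9, Srsf4 and Srsf7 with 3 each, Srsf1 and Tra2b with 2 each. The count of 19 rested on single libraries. It was 7 without the fasted wild-type library at list position 1 or the fasted Lpin1-/- library at position 2, 8 without that at Lpin1-/- position 1, 11 without wild-type position 3, 13 without wild-type position 2 and 18 without Lpin1-/- position 3. In refed liver 66 were tested and 1 passed, beside 0.97% of all events. Of the 35 SR events found in both tables and tested over the 12 libraries, 9 passed on refeeding in Lpin1-/- liver, 1 with higher and 8 with lower inclusion, beside 7.8% of all events. On refeeding in wild-type liver none passed, beside 0% of all events. An unadjusted p under 0.05 was found for 3 of the 35, beside 1459 of the 28447 events tested over all genes. The interaction called 5, all negative and in Srsf11 and Tra2b, beside 0.777%.

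Exons were then sorted by the annotation, with 1 event for each exon. In fasted liver 15 exons in 6 genes carried a stop in the frame of a protein-coding transcript that skips them and were in no protein-coding transcript themselves. Inclusion of 15 of 15 was higher in Lpin1-/-, 8 passed, and the median difference was 2.23. They share 7 skipping junctions, so they are not 15 separate measurements. The 8 that passed lie in Tra2b, Srsf11 and Srsf4, and those of the same gene share their skipping reads. Of 20 exons in coding sequence, 17 were lower and 3 higher, 5 passed as lower and none as higher, with a median of -1.38. In refed liver 5 of 12 stop-bearing exons were higher and 7 lower, and none passed. This sorting was made for the SR genes only, so these counts have no share over all genes beside them. Whether stop-bearing exons of other genes were also higher in fasted Lpin1-/- liver was not tested.

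A simpler sorting, by the transcripts that hold the exon, was made over all genes. Of the 30 SR events whose exon is in a protein-coding transcript, 23.3% were higher in fasted Lpin1-/- liver, none passed as higher and 5 as lower, with a median of -0.65. Over all genes there were 33458 such events, of which 24.0% were higher, with a median of -0.88, so that the share of SR events with this direction was near that of all genes. The other class holds events whose exon is annotated in nonsense-mediated decay transcripts and in no protein-coding one. In fasted liver the SR genes had 16 such events on 11 exons and 12 skipping junctions. Of the 16, 13 were higher in Lpin1-/-, 6 passed as higher (37.5%) and 1 as lower, with a median of 1.79. Over all genes there were 1488 such events, of which 47.6% were higher and 7.53% passed as higher, with a median of -0.09. For events of every class, 3.52% passed as higher. In refed liver 4 of 12 SR events of this class were higher and none passed.

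**Figure D3:**
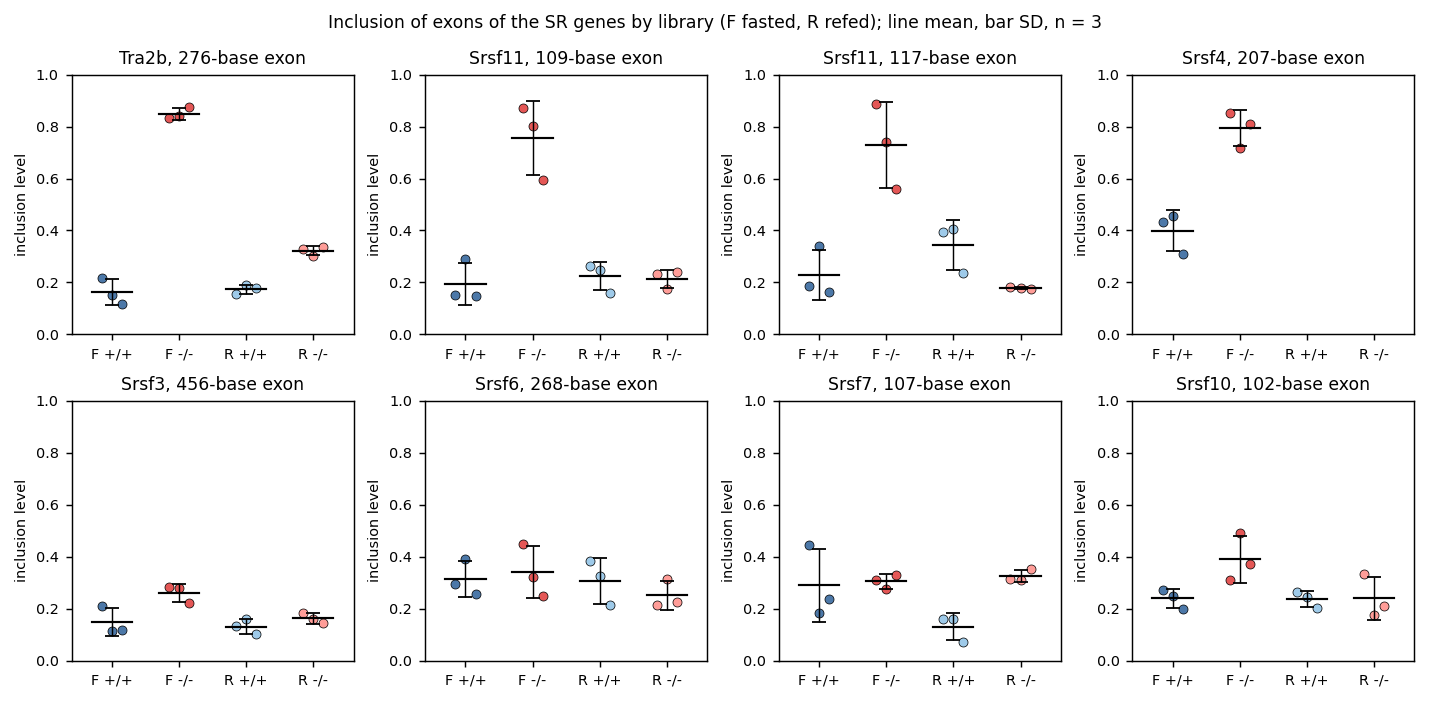
Inclusion level (0 to 1, vertical axis) of the named SR exons in the 3 livers of each group (points, with the mean as a line and the SD as a bar). The Tra2b exon of 276 bases was between 0.832 and 0.873 in fasted Lpin1-/- liver and at most 0.336 in the 9 other livers.

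The Tra2b exon of 276 bases had the largest fasted difference of the exons named. Its inclusion level was 0.216, 0.153 and 0.117 in fasted wild-type and 0.832, 0.840 and 0.873 in fasted Lpin1-/- liver. It was 0.156, 0.189 and 0.179 in refed wild-type and 0.330, 0.302 and 0.336 in refed Lpin1-/- liver. All 3 fasted mutant livers were far above the 9 others, and the refed mutant livers lay above the wild-type ones without overlap.

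Both kinds of reads moved at this Tra2b exon. Including reads numbered 113, 65 and 51 in fasted wild-type and 729, 690 and 767 in fasted Lpin1-/- liver, while skipping reads numbered 81, 71 and 76 against 29, 26 and 22. The fasted difference was 4.88 log2 (SE 0.63, adjusted p = 0.000854). The refed genotype difference was 1.17 (95% interval 0.09 to 2.25, adjusted p = 0.311). On refeeding in Lpin1-/- liver inclusion fell by 3.54 (adjusted p = 0.000845), and the difference was 0.17 in wild-type liver (95% interval -0.80 to 1.13). The difference between the genotypes in the change on refeeding was -3.71 (SE 0.64, adjusted p = 0.022). A form of 234 bases with an earlier 3′ end shares its skipping reads and passed in the same contrasts. Leaving out any 1 library, and each other setting tried, kept the fasted call, between 4.63 and 5.16.

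**Figure D4:**
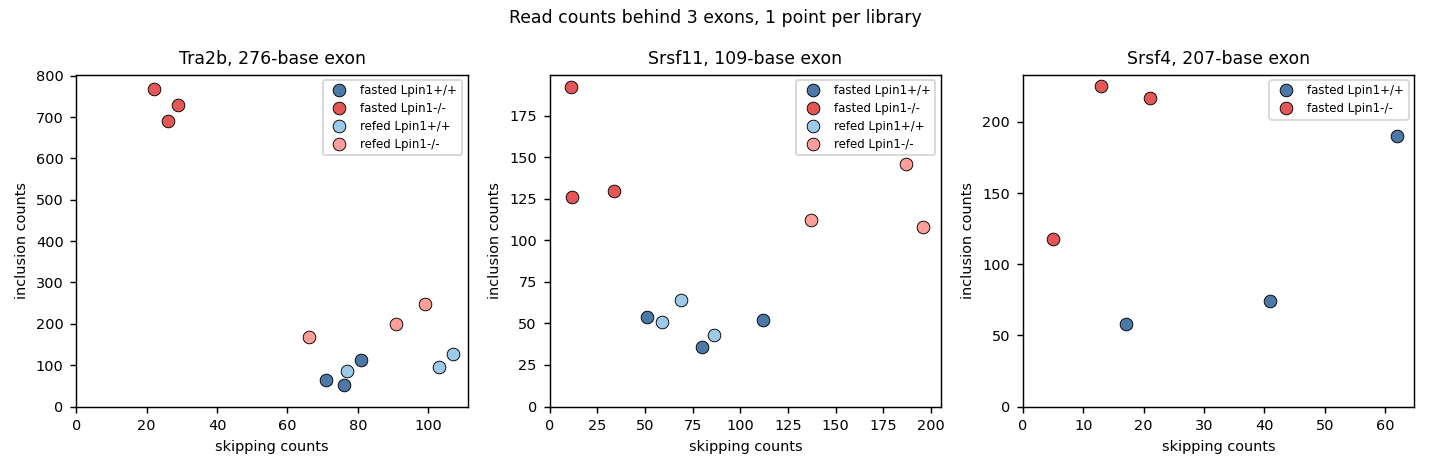
Including read counts (vertical axis) against skipping read counts (horizontal axis) of a Tra2b, an Srsf11 and an Srsf4 exon, 1 point per liver, colored by group. At the Tra2b exon the including reads rose from 51 to 113 in fasted wild-type to 690 to 767 in fasted Lpin1-/- liver, while the skipping reads went from 71 to 81 to 22 to 29.

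A pair of neighboring Srsf11 exons was also highest in fasted Lpin1-/- liver. The exon of 109 bases was included at 0.151, 0.289 and 0.147 in fasted wild-type, 0.870, 0.801 and 0.595 in fasted Lpin1-/-, 0.263, 0.249 and 0.161 in refed wild-type and 0.231, 0.175 and 0.239 in refed Lpin1-/- liver. The fasted groups were apart and the refed groups overlapped. The differences were 3.83 for genotype in fasted liver (SE 0.73, adjusted p = 0.00547), -0.06 in refed liver (95% interval -1.23 to 1.10), -3.61 on refeeding in Lpin1-/- liver (adjusted p = 0.00256) and 0.28 in wild type. The interaction was -3.89 (adjusted p = 0.0444).

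The Srsf11 exon of 117 bases was at 0.185, 0.338 and 0.165 in fasted wild-type, 0.886, 0.742 and 0.558 in fasted Lpin1-/-, 0.394, 0.407 and 0.235 in refed wild-type and 0.183, 0.177 and 0.177 in refed Lpin1-/- liver. Here the refed mutant livers were below the refed wild-type ones. The fasted difference was 3.38 (SE 0.77, adjusted p = 0.0139) and the refed difference -1.24 (95% interval -2.42 to -0.05, adjusted p = 0.331). The interaction of -4.61 was the largest of the SR exons (adjusted p = 0.0333). The fasted call of this exon was lost when either of 2 wild-type or 2 mutant libraries was left out (2.71 to 3.42, adjusted p 0.0704 to 0.0754), while that of the exon of 109 bases was kept. Skipping of both exons is read from 1 junction, with 112, 51 and 80 reads in fasted wild-type and 11, 12 and 34 in fasted Lpin1-/- liver.

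In Srsf4 the exon of 207 bases, listed between these flanking exons for fasted liver, was included at 0.431, 0.458 and 0.309 in wild-type and 0.854, 0.719 and 0.811 in Lpin1-/- liver, without overlap. The difference was 2.55 (SE 0.65, adjusted p = 0.0236). Its skipping reads, 62, 17 and 41 against 5, 21 and 13, were shared with the exon of 174 bases (chr4:131886131-131886304; 2.49, adjusted p = 0.0254). All 3 Srsf4 calls were lost when single libraries were left out, for the exon of 207 bases with values of 2.27 to 2.85 and adjusted p of 0.0513 to 0.118. In refed liver the event with the most reads of both forms skipped another exon of the same intron, 184 bases (chr4:131885309-131885492). It was at 0.291, 0.404 and 0.236 in wild-type and 0.371, 0.415 and 0.464 in Lpin1-/- liver, overlapping, with a difference of 0.68 (adjusted p = 0.612).

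The Srsf3 exon of 456 bases, the Srsf6 exon of 268 bases and the Srsf7 exon of 107 bases did not pass in any of the contrasts tested. That of Srsf3 was included at 0.211, 0.114 and 0.119 in fasted wild-type, 0.283, 0.281 and 0.222 in fasted Lpin1-/-, 0.132, 0.161 and 0.101 in refed wild-type and 0.185, 0.160 and 0.144 in refed Lpin1-/- liver. The 3 fasted mutant values were the highest, and the fasted difference was 1.08 with an interval of -0.30 to 2.46 (adjusted p = 0.308). The Srsf6 exon was at 0.294, 0.390 and 0.256 against 0.451, 0.322 and 0.251 in fasted liver and at 0.385, 0.325 and 0.213 against 0.214, 0.314 and 0.226 in refed liver, wild type first, with overlap throughout. Its fasted difference was 0.17 (-1.24 to 1.58). A form of 59 bases (chr2:162933024-162933082) lies at the 3′ end of this exon and shares its skipping reads. It is not annotated and has no stop within it, but shifts the frame to a stop after it. Its inclusion passed as lower on refeeding in Lpin1-/- liver (-2.16, adjusted p = 0.0229), a call lost without the library at list position 1 of fasted (-1.80, adjusted p = 0.0931) or position 3 of refed Lpin1-/- liver (-1.87, adjusted p = 0.0937).

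The Srsf7 exon of 107 bases was included at 0.447, 0.184 and 0.239 in fasted wild-type, 0.312, 0.275 and 0.329 in fasted Lpin1-/-, 0.162, 0.160 and 0.071 in refed wild-type and 0.314, 0.310 and 0.354 in refed Lpin1-/- liver. The fasted groups overlapped (0.18, 95% interval -1.28 to 1.65). The refed groups did not, with a difference of 1.77 (0.52 to 3.01, adjusted p = 0.178). This exon was named after its values were seen, because it is in both tables. The exon of Srsf7 with the most reads of both forms, 216 bases (chr17:80204622-80204837), was listed with these flanking exons in fasted liver, at 0.290, 0.147 and 0.152 in wild-type and 0.337, 0.271 and 0.330 in Lpin1-/- liver, a difference of 0.96 (adjusted p = 0.376).

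For Srsf10 and Srsf2 the exons with many reads of both forms do not hold a premature stop of this kind. The Srsf10 exon of 102 bases (chr4:135863729-135863830), not annotated, keeps the frame. It was at 0.272, 0.249 and 0.200 in fasted wild-type and 0.310, 0.490 and 0.370 in fasted Lpin1-/- liver, and the groups did not overlap, with a difference of 1.00 (95% interval -0.37 to 2.38, adjusted p = 0.341). In refed liver it was at 0.265, 0.246 and 0.203 against 0.335, 0.177 and 0.209. The Srsf2 exon of 104 bases (chr11:116851648-116851751, named after its values were seen because it is in both tables) lies after the stop codon. It is annotated both in nonsense-mediated decay and in protein-coding transcripts. It was at 0.226, 0.270 and 0.157 against 0.196, 0.158 and 0.137 in fasted and 0.233, 0.165 and 0.149 against 0.159, 0.231 and 0.192 in refed liver, with overlap in both. An Srsf2 form of 45 bases passed on refeeding in Lpin1-/- liver (-4.13, adjusted p = 0.0216). That call was lost without the library at list position 1 of fasted or at position 2 or 3 of refed Lpin1-/- liver (-3.46 to -3.93, adjusted p 0.0702 to 0.101).

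The exons that passed with lower inclusion in fasted Lpin1-/- liver were nearly always included and rested on few skipping reads. The coding exon of 187 bases in Srsf1 (chr11:88049412-88049598, plus strand) had 1, 3 and 1 skipping reads in fasted wild-type and 14, 5 and 8 in fasted Lpin1-/- liver, and 4, 0 and 3 against 6, 4 and 5 in refed liver. Its inclusion level fell from 0.996, 0.972 and 0.994 to 0.727, 0.937 and 0.903 in fasted liver. The difference was -3.56 (SE 0.87, adjusted p = 0.0195), and on refeeding in Lpin1-/- liver inclusion rose by 3.46 (adjusted p = 0.0312). The fasted call was lost without single libraries (-2.87 to -4.06, adjusted p 0.0514 to 0.105). The refeeding call was lost without the fasted Lpin1-/- library at list position 1 or any 1 of the 3 refed Lpin1-/- libraries (2.77 to 3.61, adjusted p 0.0691 to 0.136). The second Srsf1 call, an exon of 50 bases, rested on 2 skipping reads in all.

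The Srsf11 coding exon of 132 bases (chr3:158016322-158016453, minus strand) had no skipping reads in the 3 fasted wild-type livers, against 674, 353 and 345 including ones, and 15, 8 and 8 skipping reads in fasted Lpin1-/- liver. Its difference was -3.90 (adjusted p = 0.00498), a size that depends on the 0.5 added to each count. This exon and the next were named after their values were seen. The 3 overlapping forms of another Srsf11 exon, starting at 158012780, likewise had no skipping reads in wild-type and 5 to 10 in mutant liver. In Srsf7 the coding exon of 181 bases (chr17:80205848-80206028, minus strand) was the 1 SR event called in refed liver. Its skipping reads were 0, 0 and 1 against 23, 9 and 4 in fasted and 0, 0 and 0 against 5, 9 and 7 in refed liver. The differences were -3.10 (adjusted p = 0.0277) and -3.79 (SE 0.63, adjusted p = 0.0259). Inclusion in refed mutant liver was still 0.986, 0.978 and 0.976, and the refed call was lost without any 1 of the 6 libraries. The fasted call was lost without the library at list position 1 or 2 of either genotype (-2.74 to -3.09, adjusted p 0.0851 to 0.113). The Srsf5 coding exon of 111 bases was at 0.966 to 0.999 in all 12 livers.

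Level and inclusion were set side by side for the 7 genes with an exon in both tables and a mean of at least 50 reads of its rarer form. For 5 of them (Srsf3, Srsf6, Srsf10, Srsf11 and Tra2b) mean inclusion was highest in fasted Lpin1-/- liver. Only for Tra2b was that also the group with the highest level. For Srsf6 and Srsf10 it was the group with the lowest level, and for the other 4 genes the group with the highest inclusion was neither highest nor lowest in level. Of the 7 exons only those of Tra2b and Srsf11 passed in any contrast, so the other orders are of mean inclusions not called different. The fasted genotype difference in level did not pass for Srsf6 (limma, adjusted p = 0.286) or Srsf10 (adjusted p = 0.279) either. With 4 groups a gene no correlation was computed.

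RPKM counts reads of all transcripts of a gene, those with a poison exon included. Reads in an annotated exon of this kind, such as that of Tra2b, can themselves add to the level. Level and inclusion were therefore not independent measures, and how much such reads added was not tested. Multiplying the mean RPKM by the mean skipping share gives a rough level of the form without the exon, a description that treats reads at 1 exon as the whole transcript. For Tra2b this product was 10.3 RPKM in fasted wild-type, 3.13 in fasted Lpin1-/-, 11.7 in refed wild-type and 8.70 in refed Lpin1-/- liver. Thus the group with the highest total Tra2b level had the lowest product. For Srsf11, with the overlapping exon of 163 bases, it was 9.06, 4.17, 10.3 and 15.3 in the same order of groups, again lowest in fasted Lpin1-/- liver. The total Srsf11 level did not pass between the fasted genotypes, and these products of means were not tested. For Srsf3 the product was 27.2, 32.5, 43.2 and 41.2 and for Srsf7, with the exon of 107 bases, 12.4, 25.8, 23.4 and 17.2, so that in those genes fasted Lpin1-/- liver stayed above fasted wild type. Including reads can also come from other transcripts that overlap the exon, which was not tested.

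**Figure D5:**
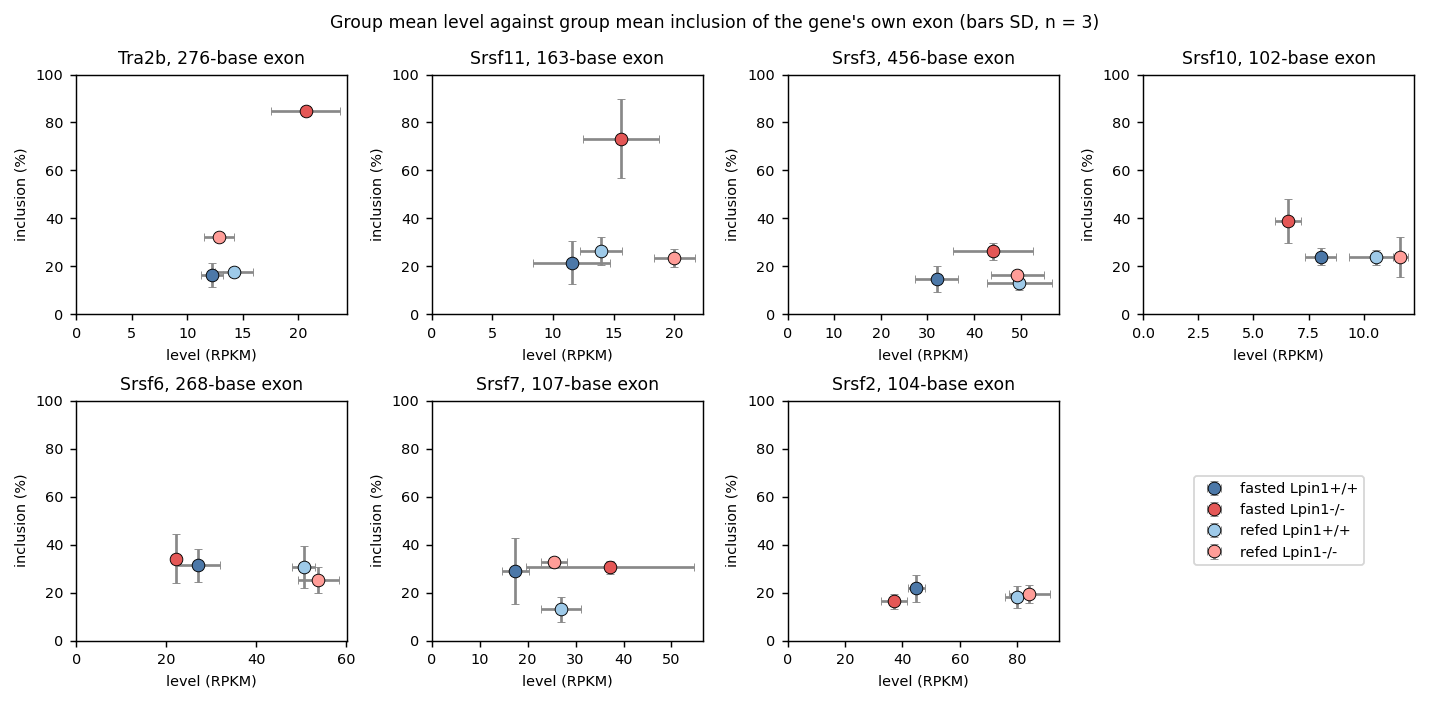
Mean level in RPKM (horizontal axis) against mean inclusion of the gene's own exon in percent (vertical axis) in the 4 groups, with SD over 3 livers as bars. Tra2b was highest on both axes in fasted Lpin1-/- liver, and Srsf10 was lowest in level and highest in inclusion there. Neither the level nor the inclusion of Srsf10 passed between the fasted genotypes.

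Other genes of the pathway were taken from 3 lists. Of 22 other SR and SR-related proteins, 21 could be tested. In fasted liver 2 were higher in Lpin1-/- (Tra2a, 0.92, adjusted p = 0.00934, and Luc7l, 0.65, adjusted p = 0.0226) and 2 lower (Luc7l3, -1.16, and Rsrc1, -1.08), 4 of 21 beside 18.8% of all genes. Tra2a encodes the close paralog of TRA2B. Its mean was 4.74 RPKM in fasted wild-type, 9.83 in fasted Lpin1-/-, 11.3 in refed wild-type and 3.17 in refed Lpin1-/- liver, so that the genotypes stood in opposite order in the 2 feeding states. Its interaction was -2.48 (adjusted p = 0.00379), and that of Luc7l3, a U1-associated protein, was 1.62 (adjusted p = 0.0399). On refeeding in Lpin1-/- liver 6 of the 21 rose, among them Luc7l3 (1.91) and Pnn (1.33), and Tra2a fell by 1.37, so that 7 of 21 passed beside 20.7% of all genes. In wild type 2 rose, Tra2a (1.11) and Snrnp70 (1.09), and in refed liver Tra2a was lower in Lpin1-/- (-1.56, adjusted p = 0.00197).

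The list of kinases of SR proteins, with their importer, holds 11 genes in all. Clk4, a kinase of the arginine- and serine-rich domain of SR proteins, was higher (0.77, adjusted p = 0.0231) in fasted Lpin1-/- liver. Akt2 was lower there (-0.82, adjusted p = 0.0333), so that 2 of 11 passed beside 18.8% of all genes. On refeeding 5 rose in Lpin1-/- liver, namely Prpf4b (1.50), the importer Tnpo3 (1.23), Akt1 (0.89), Akt2 (0.88) and Srpk1 (0.62), 5 of 11 beside 20.7%. None passed in refed liver by genotype or on refeeding in wild type. In these contrasts 0 and 1 of the 11 had an unadjusted p under 0.05, beside 2585 and 1594 of the 11507 genes tested. Of 18 nonsense-mediated decay factors, 1 passed by genotype in fasted liver, Rbm8a of the exon junction complex (0.52, adjusted p = 0.0468), beside 18.8% of all genes. In that contrast 8 of the 18 were higher and 10 lower in Lpin1-/-, and their median was -0.11, beside -0.14 over all genes. The summed RPKM of the 18 is weighted to the genes with the highest RPKM. It was 152 to 174 in fasted wild-type and 201 to 217 in fasted Lpin1-/- liver, without overlap. In refed liver it was 206 to 242 in wild type and 210 to 218 in Lpin1-/-. Upf1 (1.29) and Smg5 (1.17) rose on refeeding in Lpin1-/- liver, 2 of 18 beside 20.7% of all genes, and Nbas rose in wild type (1.10) and was lower in Lpin1-/- in refed liver (-1.34). The part of decay factors in the exon results was not tested.

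Over the 12 libraries the 10 genes did not move as 1 group. Pearson's r between pairs, given as a description over libraries that share the 4 groups, ran from 0.962 for Srsf2 and Srsf6 to -0.643 for Srsf1 and Tra2b. Srsf1, Srsf2, Srsf6 and Srsf10 had r of at least 0.893 with each other, and Tra2b had r of 0.755 with Srsf5 and 0.737 with Srsf7. The genes whose log2 level was most like the mean of the 10 were Leng1 (r = 0.97), Lime1 (0.96), Zc3h7a (0.94), Cyp26a1 (0.93) and Clk2 (0.93), among genes with a mean RPKM of at least 5.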

How the data were processed

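Per the labels, liver RNA of 12 mice was sequenced from stranded libraries, 3 mice per group. The submitters' processing notes name HISAT2 2.0.5, HTSeq 0.6.0 and GRCm38. The authors deposited RPKM per gene, normalized to gene length and mapped reads, and rMATS skipped exon tables in which they give, for each event, the including and skipping counts of each library as comma-separated lists, with effective lengths. The authors' own p-values, FDR and differences in those tables were not used. Library totals and event depth cannot be read from RPKM, so precision rests on the spread over mice. Event counts limit precision where the rarer form is scarce.

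The 10 genes, the exons and the lists were chosen with earlier results of these data known. RPKM was tested with limma 3.58.1 (R 4.3.3, trend) on log2(RPKM + 1), genes with a mean of at least 0.5, over all 12 libraries. For events the log2 ratio of length-corrected inclusion to skipping counts was tested with limma over the 6 libraries of a feeding state, and over 12 for the 34416 events listed at identical positions for both feeding states. P-values were adjusted by Benjamini-Hochberg over all features, at a threshold of 0.05. Scripts were tested on simulated data. By plan the exon named for each gene was the one with the largest mean count of its rarer form. Exons annotated only in noncoding transcripts were added and, in genes with 3 or fewer, those that passed. For Srsf2 (189 bases), Srsf5 (201) and Srsf1 (88) the exon with the largest count was listed in refed liver only and is not described. Their exons of 104, 111 and 187 bases, listed for both feeding states, are given instead. Of each list the 3 largest called changes in the fasted genotype or Lpin1-/- refeeding contrast were named. Other exons and list genes named were chosen after their values were seen. Exons were classed with GENCODE M21. Alternatives changed the pseudocount, filter, scaling, samples and libraries. An edgeR test of the counts was planned and not run.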

Additional observations from a re-analysis of the deposited data

Results flagged for a closer look

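The change on refeeding differed between the genotypes at 5 exon forms, tested by the interaction in limma over 12 libraries. The values are the log2 change of the ratio of inclusion to skipping on refeeding in Lpin1-/- liver minus that in wild type. They were -3.71 (adjusted p = 0.022) for the Tra2b exon of 276 bases and -3.67 (adjusted p = 0.0224) for its form of 234 bases. They were -4.61 (adjusted p = 0.0333), -3.89 (adjusted p = 0.0444) and -4.09 (adjusted p = 0.0429) for the Srsf11 exons of 117, 109 and 100 bases. The 2 Tra2b forms share their skipping reads, as do the 3 Srsf11 forms, so these are 2 genes rather than 5 separate results. The 5 stand beside 0.777% of all joined events that passed this test. The interaction of exon events was not repeated under any alternative setting or with a library left out.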

How the results depend on the processing

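The number of SR genes called in fasted liver by genotype was 2 with no filter on low values, 1 with only the 6 libraries compared, and 1 to 4 with 1 library left out. On refeeding in wild-type liver it was 0 after rescaling, with the replicate block and with only the 6 libraries compared, and 0 to 2 with 1 library left out. The interaction had 1 after rescaling. For SR exon events, 10 passed in fasted liver when the joined events were fitted over 12 libraries, on fewer events, and 7 to 18 with 1 library left out. In refed liver 0 passed when events were limited to those whose rarer form averaged 5 counts or more, and 0 with any library left out. The cause of these changes was not tested.

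Directions turned only for values near 0. After rescaling, the refed genotype difference was 0.10 for Srsf3, 0.088 for Srsf5 and 0.046 for Srsf7, and the refeeding difference was -0.078 for Srsf3 in Lpin1-/- and -0.032 for Tra2b in wild type. With 1 library left out, the fasted genotype difference of Srsf4 ran from -0.025 to 0.56, refed ones from -0.12 to 0.079 (Srsf3), -0.23 to 0.19 (Srsf5) and -0.19 to 0.025 (Srsf7), and the Srsf11 interaction from -0.12 to 0.22. For exons the ranges were -0.18 to 0.47 (Srsf6, 268 bases) and -0.20 to 0.72 (Srsf7, 107 bases) in fasted liver, -0.34 to 0.11 (Srsf11, 109 bases) and -0.49 to 0.12 (Srsf6, 59 bases) in refed liver, -0.26 to 0.29 (Srsf11, 64 bases) on refeeding in Lpin1-/- and -0.084 to 0.44 (Tra2b, 276 bases) on refeeding in wild type.

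Deviations of livers with the same replicate number correlated at r from -0.47 to 0.74, over 0.1 in 8 of 18 pairs. All 3 pairs passed 0.1 between refed wild-type and refed Lpin1-/- (0.16 to 0.30) and between fasted wild-type and refed Lpin1-/- liver (0.39 to 0.74), and not between the other groups. The labels tie the numbers to no shared animal or day. With the replicate block 4, 0, 5, 0 and 0 SR genes passed in the fasted genotype, refed genotype, Lpin1-/- refeeding, wild-type refeeding and interaction tests, where without it 4, 0, 5, 2 and 0 did. No block was possible for exon events, whose lists carry no replicate numbers. The planned edgeR test of event counts was not run. A limma fit weighted by the precision of the counts, chosen after seeing the data, called 21 SR events in fasted liver, beside 19.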
